A study of Mus musculus with 12 samples.

Results

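H3K27me3 is the trimethylation of lysine 27 of histone H3, which Polycomb repressive complex 2 writes on chromatin whose genes are held silent. It forms broad domains over developmental regulators, and domains are gained and lost as a tissue takes on its identity. The stretches described here carried a called H3K27me3 island in the epithelium of the mouse small intestine at the embryonic stage E12.5, and in no later population of the series. They were found by laying the island lists on a grid of 200 bp windows. A window was kept where both E12.5 lists covered it and none of the 6 lists of the other populations did, and adjacent kept windows were joined. This gave 527 stretches, set against 3435 stretches that both E12.5 lists shared and 29391 called in any of the 8 lists. The stretches were thus chosen by the called islands of all 8 lists, so their number, length and strength are given as a description, with no test.

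E12.5 and E14.5 cells were live EpCAM-positive epithelium of the embryonic small intestine, negative for the endothelial marker CD31 and the leukocyte marker CD45. Adult stem cells (ISC) were Lgr5-EGFP-high cells, and adult enterocytes (AE) were sorted by the same EpCAM, CD31 and CD45 gate, both from Lgr5EGFP-Cre-ERT males at postnatal day 60. All mice were of a mixed C57BL/6 CD1 background. The labels give neither the sex of the embryos nor how many animals went into a library. Each population had 2 ChIP libraries, which the series design calls biological duplicates, and 1 input that served as control for both. The E12.5 identity could not be checked against marker genes, because the lists hold coordinates on the mm9 build and no gene names. For the same reason no region is placed inside or outside a gene.

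The lists were uneven in size. E12.5 replicate 1 had 6171 islands over 62.5 Mb with 1171968 ChIP reads inside them, and E12.5 replicate 2 had 12649 islands over 76.0 Mb with 2114128 reads. The 6 other lists covered between 60.8 and 241 Mb, the largest being ISC replicate 1. These numbers are not sequencing depth. The ChIP to control size ratio implied by the deposited folds was 0.582 and 0.627 for E12.5 replicates 1 and 2. It ran from 0.571 to 1.46 over the other lists. A list gives reads only inside its own islands, so the other populations have no read value over the 527 stretches. A position without an island was not called, which is not the same as carrying no mark.

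Stretches called at E12.5 only were few and short. They added up to 1.49 Mb, which was 6.4% of the windows covered in both E12.5 lists and 0.401% of the 372 Mb called in any list. Their median length was 2.4 kb (quartiles 1.0 and 3.8 kb), against 5.4 kb for the 3134 stretches that both E12.5 lists shared and at least 1 other list also covered. No more than 4 stretches reached 10 kb, 80 reached 5 kb, 121 were under 1 kb and 48 were a single window. The 80 stretches of 5 kb or more held 39.4% of the length. The same rule applied to the other populations gave 2386 stretches (5.49 Mb) for E14.5, 2247 (6.70 Mb) for ISC and 842 (1.8 Mb) for AE. The length that both replicates covered, from which these are drawn, was smallest at E12.5. It was 23.3 Mb there, 57.1 Mb at E14.5, 49.8 Mb in ISC and 44.0 Mb in AE. As a share of the length that both replicates of a population covered, E12.5 stood at 6.40%, E14.5 at 9.61%, ISC at 13.5% and AE at 4.09%. The lists that exclude a window differ by population, however. ISC replicate 1, the largest list at 241 Mb, excluded windows for E12.5, E14.5 and AE but not for ISC. Comparisons between populations by this rule, here and below, were not adjusted for that. The median length at E12.5 lay above those of E14.5 (1.6 kb), ISC (2.2 kb) and AE (1.6 kb). Among longer stretches the order against ISC was reversed, with an upper quartile of 4.6 kb in ISC against 3.8 kb at E12.5. A length of 5 kb or more was reached by 22.3% of ISC-only and 15.2% of E12.5-only stretches.

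**Figure D1:**
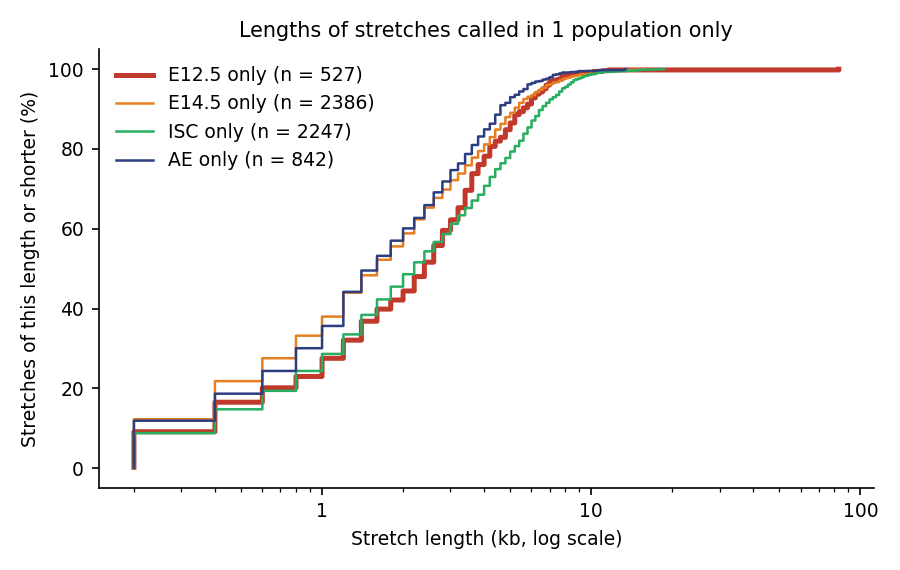
Cumulative share of stretches (vertical axis, %) by length (horizontal axis, kb, log scale) for stretches called in both replicates of 1 population and in no list of the others, with 1 line per population. The E12.5 line reaches its middle at 2.4 kb and ends in a single stretch of 83.2 kb, far beyond the next at 11.6 kb.

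Much more was called in a single E12.5 library than in both. Replicate 1 alone, with no other of the 8 lists, covered 24.4 Mb, or 38.9% of its list, and replicate 2 alone covered 17.2 Mb, or 22.6% of its list. The length in both and nowhere else was 2.39% of the replicate 1 list and 1.96% of the replicate 2 list. The stretches lay in 498 islands of replicate 1 (8.07% of that list) and 520 islands of replicate 2 (4.11%). An island of replicate 1 usually reached well past the stretch it held, which made up a median of 22.7% of that island, against 52.0% of the island in replicate 2. For 136 stretches the borders were exactly those of a whole replicate 2 island, and for 8 those of a whole replicate 1 island. No stretch was a whole island in both lists. Read counts and folds of a list therefore belong to the stretch itself in these cases only, and otherwise to a longer island around it.

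The longest stretch, on chromosome 1 (90106001 to 90189200), spanned 83.2 kb and alone held 5.58% of the length. Its replicate 1 island had 5488 ChIP and 8891 control reads, and its replicate 2 island 5811 ChIP and 8881 control reads. After the authors' scaling by library size these were folds over control of 1.06 (95% interval 1.03 to 1.1) and 1.04 (1.01 to 1.08), the lowest folds of all 527 stretches in both lists. Its control density was 106 reads per kb in replicate 1 and 107 in replicate 2, against list medians of 20.9 and 20.8. All fold intervals are exact Clopper-Pearson intervals on the ChIP share of ChIP plus control reads, and they cover counting error only, since reads may be PCR copies.

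The next longest stretches had ordinary control density. On chromosome 10 (80861401 to 80873000), an 11.6 kb stretch was a whole replicate 2 island with 301 ChIP and 283 control reads and a fold of 1.70 (1.44 to 2.00). The replicate 1 island around it, 22.2 kb long, had 390 ChIP and 543 control reads and a fold of 1.23 (1.08 to 1.41). Its fold was thus lower in replicate 1, and the nearest island of a later population lay 12.6 kb away, at E14.5. An 11.0 kb stretch on chromosome 5 (68221601 to 68232600) was a whole replicate 1 island, with 158 ChIP and 219 control reads and a fold of 1.24 (1.00 to 1.53). Replicate 2 had a 19.0 kb island there with a fold of 1.72 (1.49 to 1.99), and an E14.5 island lay 1.4 kb away.

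Chromosome 17 held 4 of the 10 longest stretches. The stretch at 26248801 to 26259000 (10.2 kb) had folds of 1.24 (1.08 to 1.42) and 1.2. The interval of the second, 0.989 to 1.46, included 1. At 67057601 to 67067200 (9.6 kb) the folds were 1.29 and 1.56, and an E14.5 island adjoined the stretch. At 84441001 to 84449800 (8.8 kb) they were 1.24 and 1.26, with an ISC island 0.2 kb away. The stretch at 3076201 to 3084600 (8.4 kb) had folds of 1.18 and 1.24 and a control density of 127 and 105 reads per kb. All 4 were below a fold of 1.5 in at least 1 list.

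The other 3 of the 10 longest were on chromosomes 19 and 4. A stretch of 8.6 kb on chromosome 19 (7215401 to 7224000) showed folds of 1.2 and 1.55, and AE, E14.5 and ISC islands lay 1.2, 5.4 and 10.0 kb away. One of 7.8 kb on the same chromosome (23202201 to 23210000) had folds of 1.29 (1.03 to 1.61) and 1.90 (1.52 to 2.38). On chromosome 4 a stretch of 8.0 kb (121755201 to 121763200) showed folds of 1.26 and 1.51, with islands of all 3 later populations within 3.0 kb. In each of these 3 the fold was higher in replicate 2.

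The islands over the stretches had folds slightly below those of their own lists, and well below those over E12.5 stretches also called elsewhere in replicate 2. The median fold over control was 1.34 in replicate 1 (quartiles 1.27 and 1.43) and 1.57 in replicate 2 (1.42 and 1.82), beside 1.38 and 1.66 over all islands of the same lists. The E12.5 stretches also called elsewhere had medians of 1.44 in replicate 1 and 2.21 in replicate 2. Before scaling by library size, ChIP reads divided by control reads had medians of 0.778 and 0.986 over the E12.5-only stretches, against 0.837 and 1.38 over those also called elsewhere. A fold of 1.5 or more was reached in both lists over 59 stretches, or 11.2%, against 38.2% of the stretches also called elsewhere. In replicate 1 alone it was reached over 81 stretches (15.4% against 40.1%), and in replicate 2 over 327 (62.0% against 87%). Both lists of the population reached 1.5 over 59.1% of E14.5-only, 20.4% of ISC-only and 34.3% of AE-only stretches. A fixed limit of 1.5 is not equally strict for each population, because whole lists differed in fold. E14.5 replicate 1 had a list median of 1.56, against 1.38 for E12.5 replicate 1. The 2 ISC lists had medians of 1.46 and 1.44, and the AE lists 1.44 and 1.52. These population shares were not adjusted for that. At E12.5 the replicate 2 fold was the higher for 450 of the 527 stretches. Since calling fixes which stretches qualify, these shares describe the selected stretches and do not test a difference.

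**Figure D2:**
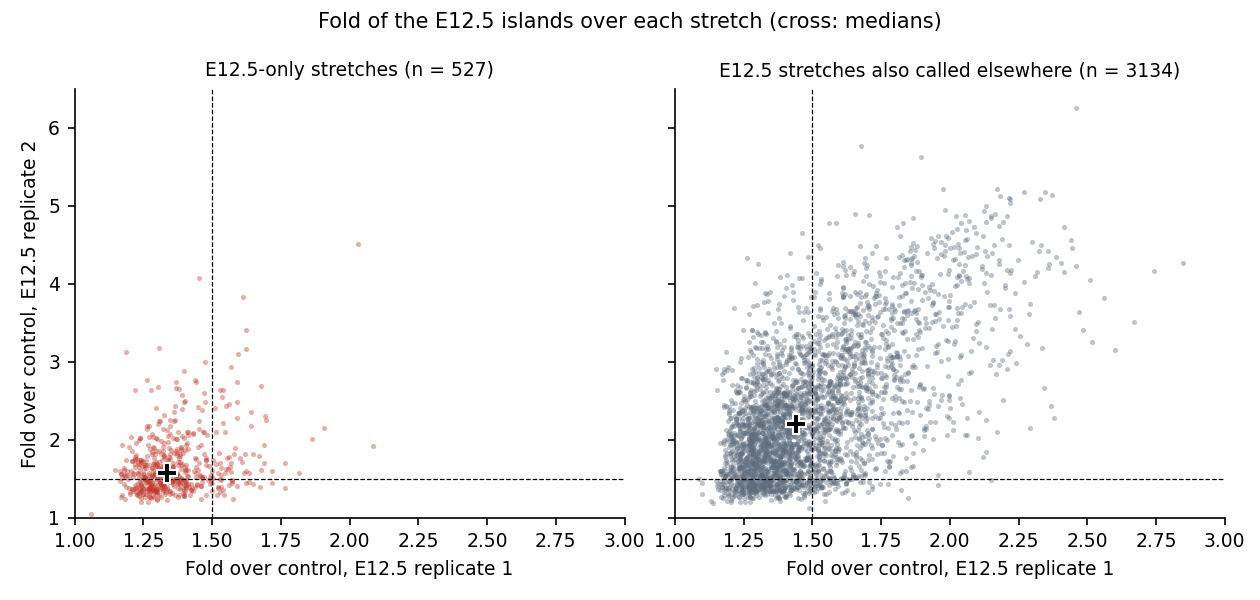
Fold over control of the E12.5 replicate 1 island (horizontal axis) and replicate 2 island (vertical axis) over each stretch, for 527 E12.5-only stretches (left) and 3134 E12.5 stretches also called elsewhere (right). Dashed lines mark a fold of 1.5, and the cross marks the medians, 1.34 and 1.57 on the left and 1.44 and 2.21 on the right.

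The authors' false discovery rate (FDR) was higher over the E12.5-only stretches than over those also called elsewhere. An FDR of 1e-10 or less in both lists was found over 9 stretches (1.71%), against 18.1% of the stretches also called elsewhere. In replicate 1, 41.9% of the stretches had an FDR above 0.001, against 21.7%, and in replicate 2 the shares were 26% against 5.93%. No FDR in any list exceeded 0.01. The stretches nearest to that limit from inside were on chromosome 2 (27382601 to 27387000), at 0.00997 in replicate 2, and on chromosome 11 (109441401 to 109444600), at 0.00996 in replicate 1. Islands over the stretches held medians of 158 ChIP and 202 control reads in replicate 1 and of 103 and 107 in replicate 2. The counting interval of the fold lay above 1 in both lists for 468 stretches and included 1 in at least 1 list for 59. The islands were called from these same counts, so the 468 are no separate support for the calls.

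Just outside the rule lay windows of only slightly higher fold. Windows covered in both E12.5 lists and in exactly 1 other list came to 1.26 Mb, and their median folds were 1.33 and 1.59, beside 1.31 and 1.51 for the E12.5-only windows. Of this length, 42.7% was called in E14.5 replicate 2 and 40.8% in ISC replicate 1, the largest of the 6 other lists. E14.5 replicate 1 accounted for 8.45%, AE replicate 2 for 3.37%, ISC replicate 2 for 2.71% and AE replicate 1 for 1.91%. Windows covered in all 6 other lists came to 11.0 Mb, with median folds of 1.62 and 3.09. The median fold did not climb at every step between these ends, for windows in 2 other lists had medians of 1.40 and 2.08 and those in 3 had 1.37 and 1.93.

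**Figure D3:**
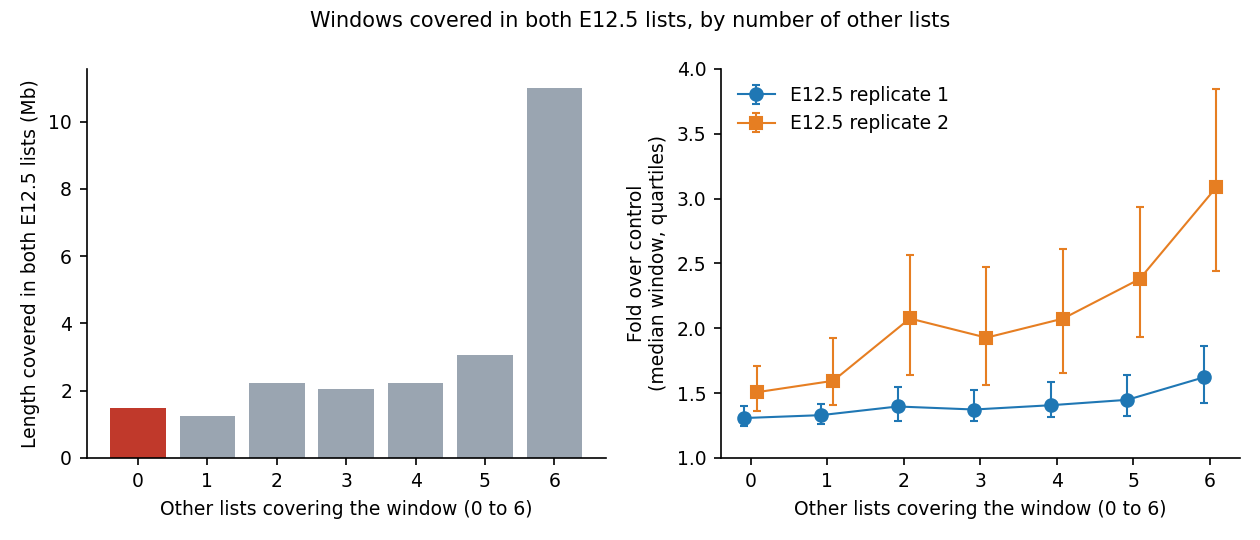
Windows covered in both E12.5 lists, by how many of the 6 other lists cover them (horizontal axis, 0 to 6). Left, their length in Mb, 1.49 Mb at 0 (red) and 11.0 Mb at 6; right, the median fold over control with quartile bars in each E12.5 replicate, 1.31 and 1.51 at 0 and 1.62 and 3.09 at 6.

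Up to 8 kb, the longer E12.5-only stretches lay in islands of lower median fold in both lists. Stretches also called elsewhere had the higher replicate 2 medians the longer they were. These folds are those of whole islands, and most E12.5-only stretches under 1 kb adjoined an island of another population. Whether the fold of the stretches themselves changes with length was not tested. Among stretches of 4 kb to under 8 kb, the 117 E12.5-only ones had median folds of 1.32 and 1.44, and the 1267 also called elsewhere 1.43 and 2.21. A fold of 1.5 or more in both lists was reached by 5.98% of these 117 and by 37.6% of these 1267. Under 1 kb the medians were 1.37 and 1.76 for 121 E12.5-only stretches and 1.42 and 1.68 for those also called elsewhere, with 21.5% and 27.6% at 1.5 or more in both lists. The 9 E12.5-only stretches of 8 kb or more included 0 with such folds, against 465 of 902.

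Of the 527 stretches, 214 (40.6%) directly adjoined an island of another population, and 313 did not. The share was higher by the same rule for E14.5-only (74.7%), ISC-only (66.7%) and AE-only stretches (59.4%). Adjoining E12.5-only stretches were small (median 1.0 kb, total 0.318 Mb), against 3.4 kb and 1.17 Mb for the other 313. Their median folds were 1.35 and 1.71, against 1.33 and 1.51 for the others. Most were the ends of regions shared with a later population, since in 212 cases the length covered in both E12.5 lists ran on into a window called elsewhere. Seen from the 3435 stretches shared by both E12.5 lists, 315 (9.17%) had no window called elsewhere, 209 had some, and 2911 were called elsewhere throughout. A stricter class, in which neither E12.5 island touched any island of the 6 other lists, held 256 stretches and 0.960 Mb. These stand-alone stretches had a median length of 3.2 kb and median folds of 1.33 and 1.53.

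The neighbouring island was most often an E14.5 one. E14.5 islands adjoined 139 stretches (26.4%), ISC islands 80 (15.2%) and AE islands 23 (4.36%). Taken as a union of replicates, E14.5 islands covered 128 Mb, ISC islands 252 Mb and AE islands 127 Mb, so E14.5 and AE islands took up nearly equal length while E14.5 islands adjoined more stretches. Median distances to the nearest island were 13.2 kb for E14.5, 20.0 kb for ISC and 38.4 kb for AE. Taking all 6 lists together, the median was 3.4 kb and 63.4% of the stretches had an island within 10 kb. The 3 distances were not tested against each other, since the same E12.5 stretches enter all of them.

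**Figure D4:**
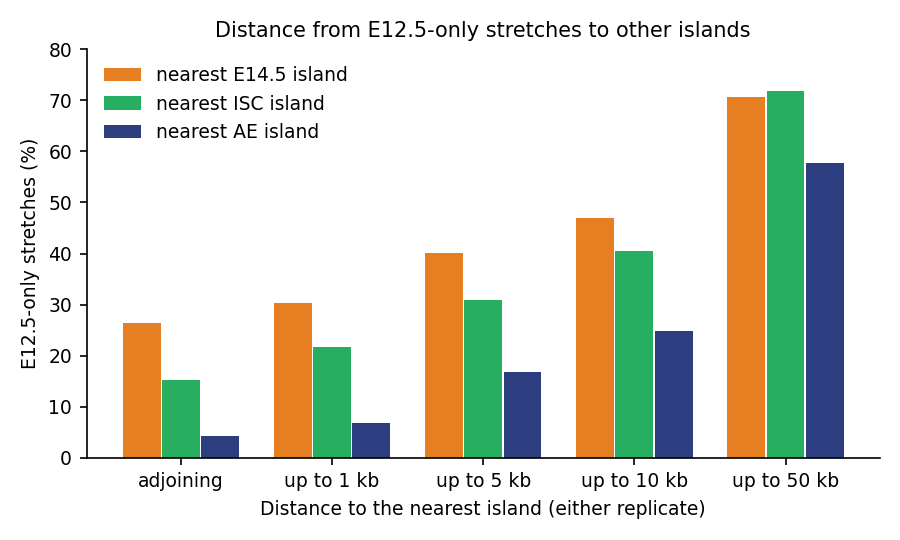
Share of the 527 E12.5-only stretches (vertical axis, %) with an E14.5, ISC or AE island of either replicate adjoining or within the distance on the horizontal axis. E14.5 islands adjoined 26.4%, ISC islands 15.2% and AE islands 4.36%, while within 50 kb the shares were 70.6%, 71.9% and 57.7%.

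Stretches in islands of strong fold were mostly short and mostly adjoined other islands. The fold is that of the whole island, so it does not show that a short stretch is itself strongly marked. The 59 strong ones, with a fold of 1.5 or more in both lists, had a median length of 1.0 kb, and 35 of them adjoined an island of another population. The 178 weak ones, below 1.5 in both lists, had a median length of 3.2 kb, and 43 adjoined one. The remaining 290 reached 1.5 in a single list, with a median length of 2.2 kb. Median control density in replicates 1 and 2 was 19.3 and 20.2 reads per kb for the strong ones, against 21.5 and 22.0 for the weak ones. Control reads are the divisor of the fold and both lists share 1 control, so the 2 folds of a stretch are not independent. What part control density plays in the strong folds was not tested. All 9 stretches with an FDR of 1e-10 or less in both lists adjoined an island of another population. They were a set picked after its values were seen, and were at most 1.8 kb long. Each made up at most 16.7% of its replicate 1 island and at most 28.1% of its replicate 2 island. The extreme case was 0.4 kb on the X chromosome (90549001 to 90549400), at the edge of islands of 18.4 and 23.2 kb with folds of 2.03 and 4.51, next to an E14.5 island. A fold of 2 or more in both lists was found nowhere else among the 527 stretches, against 166 of the 3134 also called elsewhere.

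Among stretches of 2 kb or more, the highest value of the smaller fold belonged to a 2.0 kb stretch on the X chromosome (31532001 to 31534000). It was a whole replicate 2 island with 53 ChIP and 44 control reads and a fold of 1.92 (1.26 to 2.93). The 4.4 kb replicate 1 island over it had 85 ChIP and 70 control reads and a fold of 2.09 (1.5 to 2.91). No island of another population lay within 572.2 kb. The second was on chromosome 5 (92071201 to 92074800, 3.6 kb), with folds of 1.67 (1.26 to 2.21) and 1.79 (1.23 to 2.60). Its nearest other island, an ISC one, was 191 kb away. A 3.0 kb stretch on chromosome 17 (35610401 to 35613400) had folds of 1.68 (1.30 to 2.17) and 1.61 (1.17 to 2.22). An E14.5 island lay 0.6 kb away.

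The other 5 of these 8 had replicate 1 folds of 1.56 to 1.63 and replicate 2 folds of 1.57 to 1.77. They lay on chromosome 3 (34773201 to 34778000, 4.8 kb), chromosome 4 (150076601 to 150081200, 4.6 kb), chromosome 9 (107174001 to 107177000, 3.0 kb), chromosome 2 (155658201 to 155661000, 2.8 kb) and chromosome 7 (129596401 to 129598800, 2.4 kb). In none of the 5 did either E12.5 island touch an island of another population. The closest such island was 5.2 kb away for chromosome 7, 17.8 kb for chromosome 4, 27.4 kb for chromosome 2, 27.6 kb for chromosome 9 and 40.0 kb for chromosome 3, in each case from E14.5.

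Control read density was ordinary for most stretches. The median was 21.3 control reads per kb in replicate 1 and 21.2 in replicate 2, against 21.7 in both lists for the stretches also called elsewhere. A density of more than 2 times the list median in both lists was found over 12 stretches, or 2.28% of them, close to the 2.07% of the stretches also called elsewhere. Together these 12 spanned 103 kb, or 6.92% of the E12.5-only length. Among them, 7 adjoined another population's island and 7 were under 1 kb, so that the 83.2 kb stretch on chromosome 1 and the 8.4 kb stretch on chromosome 17 made up most of their length. The highest mean density lay over 0.4 kb on chromosome 11 (108874001 to 108874400), with 163 and 192 control reads per kb and folds of 1.55 and 2.10. E14.5, ISC and AE islands all adjoined it. Next, before the 8.4 kb stretch on chromosome 17 named above, came 0.4 kb on chromosome 1 (197067601 to 197068000), where the densities were 44.3 over the 2.8 kb replicate 1 island and 210.0 over the stretch itself in replicate 2. On chromosome 4 (70038001 to 70038400) a 0.4 kb stretch had 97.3 and 128 reads per kb. What part dense control reads play in these calls was not tested.

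**Figure D5:**
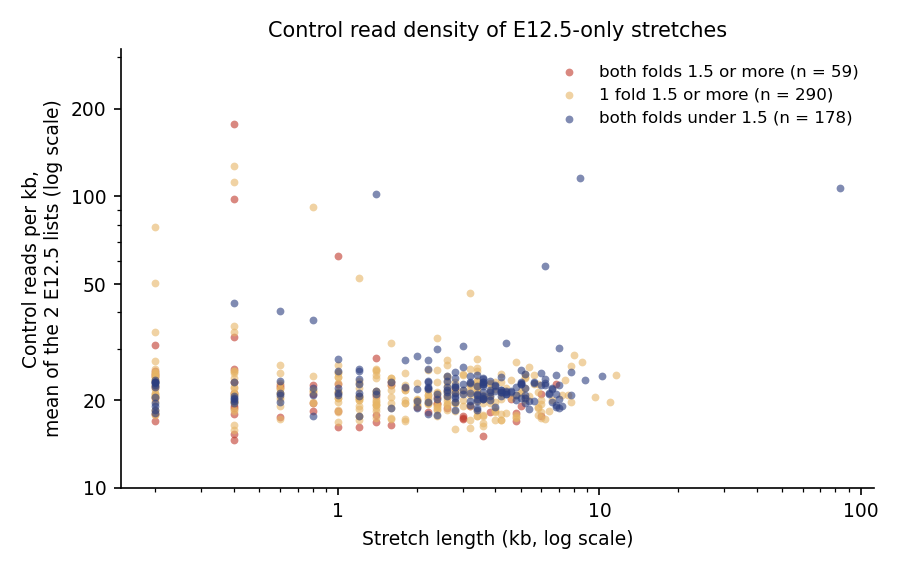
Control reads per kb, the mean of the 2 E12.5 lists (vertical axis, log scale), against length in kb (horizontal axis, log scale) for the 527 stretches, coloured by how many lists reached a fold of 1.5. Most points sit near 20 reads per kb, and the point at 83.2 kb stands at over 100 with both folds below 1.5.

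The stretches were spread over chromosomes 1 to 19 and X, with 0 on chromosome Y. Chromosome 4 had the most, at 51, followed by chromosome 7 with 47, chromosome 11 with 42 and chromosome 17 with 41. As a share of the length covered in both E12.5 lists, E12.5-only length was highest on chromosome 17, at 13.0%, and remained 12% there without its longest stretch. It was 9.99% on chromosome 1, but 4.70% without the 83.2 kb stretch, and 3.52% on chromosome 14, the lowest share of a chromosome that held any. The X chromosome held 6 stretches and 0.670% of the length. On X, the share of E12.5-only length in the length shared by both E12.5 lists was 6.49%, close to the 6.4% of all windows. By comparison, X held 10.6% of the E14.5-only length, 0% of the ISC-only and 0.222% of the AE-only length. The adult mice were males and the labels do not give the sex of the embryos, so sex and age cannot be told apart for X.

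Most stretches had no other E12.5-only stretch within 50 kb. The median gap between neighbouring stretches of a chromosome was 1375.6 kb, and 55 of 507 gaps were 50 kb or less. Whether the stretches lie closer together than randomly placed ones, or than E12.5 stretches also called elsewhere, was not tested. Joining neighbours within 50 kb placed 101 stretches (19.2%) in 46 clusters, of which 9 held 3 stretches and none more. By the same rule 55.3% of E14.5-only, 49.8% of ISC-only and 38.6% of AE-only stretches had such a neighbour, and these sets, in particular those of E14.5 and ISC, were larger. Of the 55 close pairs, 29 lay in a single replicate 1 island, and 22 shared no island in either list.

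The first 4 clusters of 3 stretches in genome order lay on chromosomes 2, 7 and 10. On chromosome 7 (144309201 to 144321800), stretches of 2.6, 2.2 and 5.2 kb were 3 separate replicate 2 islands, with folds of 1.68, 1.43 and 1.74, inside a single replicate 1 island with a fold of 1.22. A second cluster on chromosome 7 (46583001 to 46611000) held 6.8 kb over a 28.0 kb span, with folds of 1.39 in replicate 1 and of 1.47 to 1.91 in replicate 2. No list of another population had an island inside either span. The chromosome 2 cluster (155630801 to 155661000) held 4.6 kb over 30.2 kb, also with no other island inside it. The chromosome 10 cluster (80861401 to 80892200) began with the 11.6 kb stretch above and held 17.6 kb over 30.8 kb, where other lists had islands over 6.2 kb.

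How much is called at E12.5 only rested on the requirement that both E12.5 libraries call it and on the fold and FDR asked of an island. If E12.5 replicate 2 alone had to cover a window, the length became 18.7 Mb in 5393 stretches, and with E12.5 replicate 1 alone it became 25.8 Mb in 3800 stretches, against 1.49 Mb in 527. With islands of a fold of 1.5 or more in all 8 lists, 117 stretches and 0.242 Mb were E12.5-only, and with an FDR of 1e-10 or less 14 stretches and 0.0314 Mb. Both numbers include length that became E12.5-only because islands of the other lists were dropped. Of the 527 stretches themselves, 59 (0.103 Mb) had a fold of 1.5 or more in both E12.5 lists and 9 (6.8 kb) such an FDR. When each list was cut from its highest folds down to an equal covered length of 60.8 Mb, the length was 1.97 Mb in 715 stretches. Of the windows in the 527 stretches, 61.0% were still E12.5-only then.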

How the data were processed

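H3K27me3 ChIP-seq islands of 8 libraries were analysed. The submitters' processing notes name SICER 1.1, a caller that joins enriched windows into broad islands, along with Bowtie 1.1.2, SAMtools 1.2, bcl2fastq 1.8.4 and the mm9 build. Parameters are not given in the sources used here. The deposited lists have no header, and the columns were read from the values. ChIP and control counts per island are raw read counts as deposited. The deposited fold is a ratio that the authors computed as ChIP over control reads after scaling for library size. The p-value and the FDR of each island are likewise as deposited by the authors. Islands were called per replicate. In 30 islands with identical borders in both E12.5 lists the control counts were equal in 30 and the ChIP counts in 0, so the replicates share a control and are separate libraries.

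Lists were laid on the 200 bp grid with Python 3.11.15, numpy 2.4.6, pandas 2.3.3 and scipy 1.17.1, and coordinates are 1-based. The procedure was tested on simulated islands. Where several islands cover a stretch, values are those of the island covering most of it. No count test was possible, since reads outside a list's own islands are not listed. The regions named are the 10 longest, the 8 of 2 kb or more with the highest smaller fold, the 5 longest standing alone, the 4 of highest mean control density and the 4 largest clusters, ties in genome order. The 5 longest standing alone are all among the 10 longest. The rule and the alternatives were chosen with earlier results of these data known. Alternatives were other fold, FDR and length limits, equal covered length, padding of the other lists, merging across gaps, and leaving out libraries. Sequences and gene names were not used here, because the tables at hand are of another mouse build.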

Additional observations from a re-analysis of the deposited data

How the results depend on the processing

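No paired analysis was possible because the results come from no test. Leaving out each library in turn gave 539 to 5393 stretches and 1.52 to 25.8 Mb, and the values outside 1.5 times the reported ones, 527 and 1.49 Mb, came without an E12.5 library. With islands of a fold of 1.5 or more in all lists there were 117 stretches over 0.242 Mb, all of them (100%) at that fold by construction, with median control densities of 20.0 and 20.8 reads per kb in replicates 1 and 2. With an FDR of 1e-10 or less there were 14 stretches over 0.0314 Mb, of which 78.6% adjoined another population and 92.9% had a fold of 1.5 or more in both lists, with densities of 25.3 and 26.8. With a fold of 1.5 or more asked of the E12.5 lists alone there were 59 stretches over 0.103 Mb, of which 59.3% adjoined another population and 100% had such folds by construction, with densities of 19.3 and 20.2. Keeping only stretches whose 2 E12.5 islands touch no island of another list gave 256 stretches over 0.960 Mb. Of these 0% adjoined another population, by construction, and 8.59% had such folds, with densities of 20.8 and 20.8. At equal covered length 17.3% had such folds, and the replicate 1 density was 21.2. Padding the other lists by 1 kb gave 8.25% with such folds and densities of 21.0 and 21.0. Of these stretches 24.5% adjoined a padded island, which is not the same measure as directly adjoining a called one. Stretches of 1 kb or more gave 27.8% adjoining another population, 8.13% with such folds and densities of 21.1 and 21.0. Leaving out stretches of dense control reads gave densities of 21.1 and 21.0. Merging across gaps of up to 1 kb changed nothing, since the smallest gap was 1200 bp. Leaving out the longest stretch, an alternative added after seeing the data, gave 1.41 Mb. Joining neighbours within 20 or 100 kb placed 16.1% or 26.2% of the stretches in clusters, against 19.2% within 50 kb. The cause of these shifts was not tested. The lists also differed in covered length, with ISC replicate 2 and E12.5 replicate 1 covering the least. A window not called in a later library may still carry the mark there.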

Other observations

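The length called in a single library and in no other of the 8 lists varied widely, also outside E12.5. It was 9.09 and 19.1 Mb for replicates 1 and 2 at E14.5, 103 and 7.13 Mb in ISC, and 11.3 and 13.1 Mb in AE. As a share of its own list, E12.5 replicate 1, at 38.9%, came second to ISC replicate 1, at 42.7%, and the remaining 6 lists ranged from 11.7 to 22.6%.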
